A study of Mus musculus with 16 samples.

Results

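Genes of the sperm tail axoneme and of intraflagellar transport (IFT) were followed through 3 kinds of male mouse germ cell preparation, with and without the microRNA miR-202. The genes were taken by name: axonemal dynein chains (symbols starting Dnahc, Dnaic or Dnalc, and Dnali1), tektins, radial spoke proteins (Rsph), IFT proteins and the sperm associated antigens (Spag). They came to 49 of the 22293 gene symbols that occurred once in the files: 10 dynein heavy chains, 5 smaller dynein chains, 5 tektins, 6 radial spoke proteins, 12 IFT proteins and 11 SPAG proteins. The 16 libraries were all from male mice labelled C57;ICR. There were 2 wildtype and 2 knockout libraries of spermatogonia isolated from pups aged 6 to 7 days. For spermatocytes, isolated from adult mice, there were 3 of each genotype, as there were for spermatogonial stem cells that were derived from pups of the same age and cultured with GDNF and bFGF. Knockout libraries are labelled KO, and the series title names microRNA-202; how the allele was made and how many animals went into a library were not stated. According to the series, replicates are biological. Values are FPKM, which scale fragments to transcript length and library size.

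The axoneme is the microtubule core of the cilium and the flagellum. Outer and inner dynein arms on its doublet microtubules drive the beat, radial spokes pass signals from the central pair to the arms, and tektins line the doublets. IFT-B and IFT-A complexes carry axonemal parts to the tip and back, and are needed to build the sperm tail, which male germ cells assemble after meiosis, in spermatids. The mRNAs for many of these parts are made earlier, in spermatocytes.

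Libraries carried the markers of their labelled cell type beside those of others. Ldhc, a lactate dehydrogenase of meiotic male germ cells, lay at 3110 to 3833 FPKM in spermatocyte libraries and 2.82 to 9.17 elsewhere. Prm1, a protamine of spermatids, lay at 335 to 1494 FPKM in the spermatocyte libraries and at 23.6 FPKM in knockout spermatogonia replicate 2 against 0.336 to 0.934 in the other 3 spermatogonial libraries. Gfra1, the GDNF receptor of undifferentiated spermatogonia, lay at 17.98 to 24.7 FPKM in spermatogonia, 39.3 to 85.2 in cultures and 0.681 to 1.31 in spermatocytes. Amh, a Sertoli cell hormone, lay at 121 to 217 FPKM in isolated spermatogonia. Mir202 was listed at 0 in all 16 libraries, so the genotype could not be checked from these values. The tables hold no read counts, so depth is unknown.

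Promoters are shown first, since RFX and forkhead factors are known regulators of ciliary genes and CREM, which binds the cAMP response element, of spermatid genes. RefSeq (GRCm38.p6) gave a promoter, 250 bases before to 50 bases after the start, for 41 of the 49 genes. An X-box for RFX factors, relaxed to GTNNCC and GNAAC with 3 bases between, and read on both strands, was found in 5 of them, which is 12.2% against 2.49% of all 27025 genes with a promoter. Motif letters were set after several spellings had been looked at, so this share and those below are descriptions, not tests of enrichment. The 5 windows below run 5′ to 3′ on the gene's strand, and capitals mark the match; in Ift57 the match is on the opposite strand.

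Dnahc17: acgcccttGTCACCAGCGCAACcacagata
Tekt4: ccccacctGTGTCCTGGGAAACaaactcat
Spag16: ggcaacgcGTTGCCGTAGTAACtgcggacg
Ift57: cgggtctgGTTGCCGTGGTGACcggctgcc
Spag5: ctcactcgGTAACCGGGGGAACggagccac

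They lie at chr11:118129357-118129386 (minus strand), chr17:25471422-25471451 (plus strand), chr1:69826859-69826888 (plus strand), chr16:49699199-49699228 (plus strand) and chr11:78301397-78301426 (plus strand). Tekt4 held a second match, on the opposite strand at its start. The full response element TGACGTCA, which reads the same on both strands, was found in 3 of the 41 (7.32%, against 2.03% of all genes), with capitals again on the match.

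Dnahc6: ctgacaactaaTGACGTCAaatactctggg
Spag4: ctggctcccagTGACGTCAcgggcgctctg
Ift57: ccagcatggcgTGACGTCAcgtaagaatcc

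These lie at chr6:73221788-73221817 (minus strand), chr2:156065165-156065194 (plus strand) and chr16:49699121-49699150 (plus strand). A forkhead core, TGTTTAC on either strand, was found in Dnahc17 and Tekt3 (4.88%, against 4.05% of all genes). The motifs overlap in none of the windows. Genes with a match ran from an outer arm dynein to a spindle protein, and some high members had none: Dnahc8 and Spag6 had no match in this window. A match describes letters, not binding.

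In wildtype spermatocytes nearly every member stood far above its level in the other cells. A gene was tested where it reached 1 FPKM in at least 2 libraries of either cell type compared, with limma on log2(FPKM + 1) and an adjusted p under 0.05 over all genes tested. Against isolated spermatogonia 41 of the 43 members tested were higher and 1 was lower, where 33.8% of all 13806 genes were higher and 55.2% lower. Against cultured stem cells 42 of 44 were higher and 1 was lower, where 33.2% of 13864 genes were higher and 56.9% lower. The members' median log2 change was 4.50 and 4.24 (all genes: -0.73 and -0.77). Many members passed the filter through spermatocytes alone and had to be higher. Of the 26 that passed it within spermatogonia, 24 were higher and 1 was lower (all such genes: 24.3% and 63.5%), and of the 28 that passed it within cultures, 26 and 1 (23.5% and 65.5%).

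Together the 49 genes made up 1.37% to 1.65% of the FPKM sum of a spermatocyte library and 0.081% to 0.106% elsewhere. In each spermatocyte library 43 members reached 1 FPKM, against 24 to 28 in the other libraries. There were 16 members with a mean below 1 FPKM in wildtype spermatogonia and cultures and at least 10 FPKM in wildtype spermatocytes, and 5 stayed below 1 FPKM in all 3 wildtype groups. In bulk samples fewer cells of a type and less RNA per cell cannot be told apart. The spermatid list moved with this difference: the mean log2(FPKM + 1) of its 16 genes was 6.57 to 7.01 in wildtype spermatocytes, 0.50 and 0.58 in wildtype spermatogonia and 0.47 to 0.58 in wildtype cultures, with 1 and 3 of the 16 at 0 in the last pair of groups. Of other lists, 13 of 13 pachytene markers were higher than in spermatogonia, and 11 of 11 Sertoli (median log2 change -5.17), 9 of 9 myoid (-2.57) and 9 of 9 fibroblast markers (-5.51) were lower. Against cultures 12 of 13 pachytene markers were higher and 10 of 10 fibroblast and feeder markers lower (-4.60). A marker that passed the filter through 1 cell type alone had to be higher there. The part of these lists in the result was not tested. The median over all genes shifted to 0.09 with median-ratio scaling in both comparisons (calls higher 51.3% and 51.6% in place of 38.0% and 36.8%), and 42 and 43 members were then higher.

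**Figure D1:**
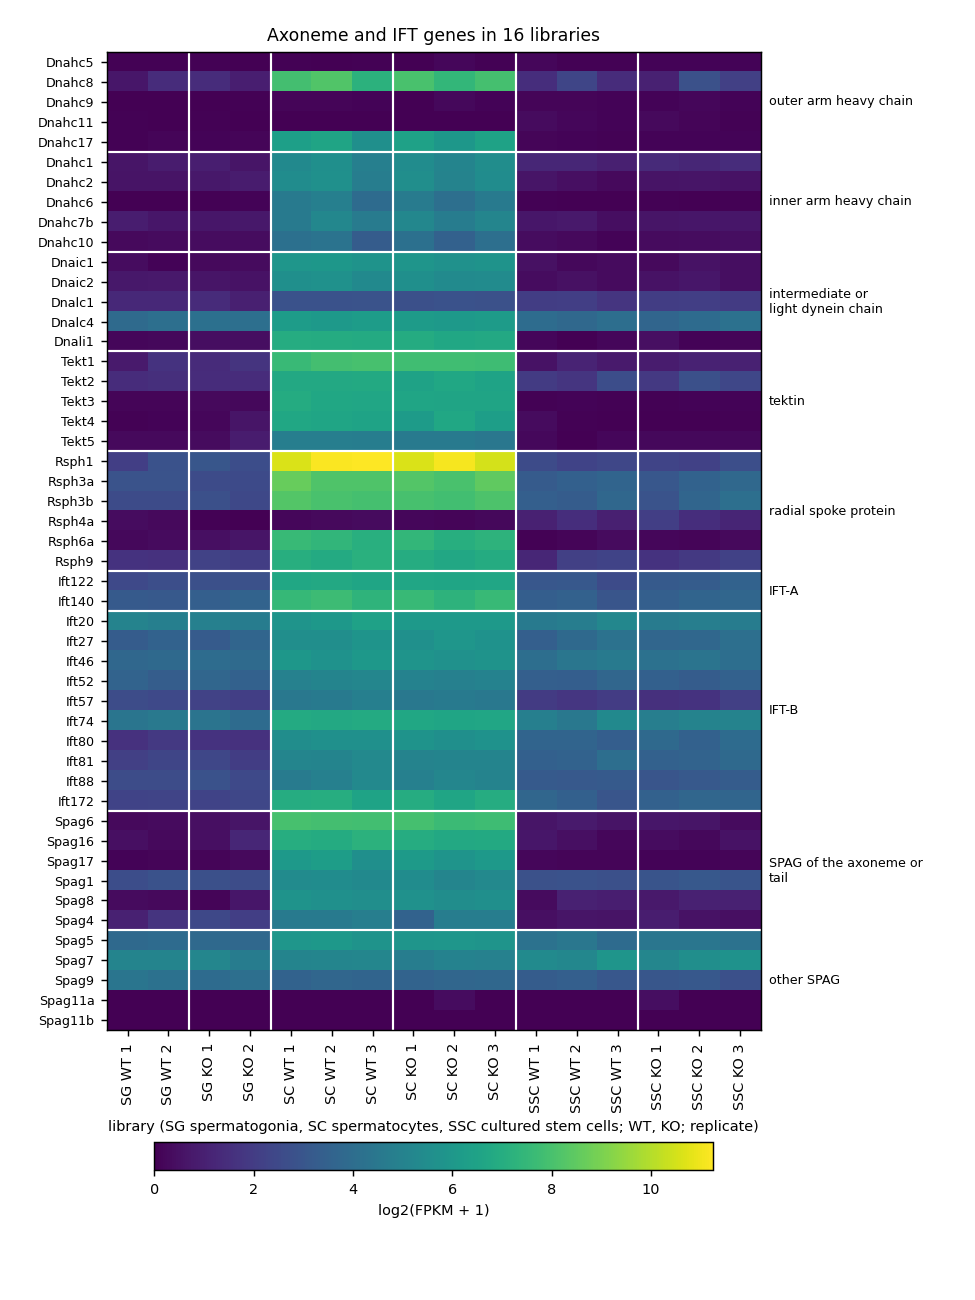
Level of each of the 49 genes (rows, grouped by role) in each of the 16 libraries (columns), as log2(FPKM + 1) in colour. The 6 spermatocyte columns are brightest for most of the 43 genes that reach 1 FPKM there, but not for Spag7 and Spag9, and Dnalc1 is dim. The IFT rows are visible in all columns, though dim for Ift80 in spermatogonia and Ift57 in cultures. Dnahc5, Dnahc9, Dnahc11, Rsph4a, Spag11a and Spag11b stay dark in spermatocytes.

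The outer arm heavy chains, the motors that set beat frequency, were split between a pair of high genes and 3 that were all but silent. Dnahc8, an outer arm motor of the sperm tail, stood at 235, 292 and 147 FPKM in the wildtype set and 258, 173 and 248 in the knockout set of spermatocytes. It lay at 0.594 and 1.71 FPKM in wildtype and 1.69 and 0.949 in knockout spermatogonia, and 1.80, 4.11 and 1.67 in wildtype and 1.07, 5.87 and 3.34 in knockout cultures. The 6 spermatocyte libraries did not overlap with any other, and the log2 change of wildtype spermatocytes was 6.71 over spermatogonia (SE 0.44) and 6.01 over cultures (SE 0.39). Dnahc17, its partner in the sperm outer arm, stood at 80.1, 94.7 and 47.8 FPKM in the wildtype set and 86.6, 61.5 and 87.5 in the knockout set of spermatocytes. Elsewhere Dnahc17 lay at 0.0400 and 0.117 FPKM in wildtype and 0.0933 and 0.113 in knockout spermatogonia, and 0.107, 0.0873 and 0.0447 in wildtype and 0.0722, 0.0757 and 0.0855 in knockout cultures, so it was near 0 in all 10. Its wildtype mean in spermatocytes was 74.2 ± 23.99 FPKM (SD, n = 3), 945 times that of spermatogonia, a ratio of a high level to one near 0. Dnahc17 passed the filter through spermatocytes alone, so it had to be higher there.

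The outer arm heavy chains best known from airway cilia did not follow. Dnahc9 stood at 0.115, 0.108 and 0.0943 FPKM in the wildtype set and 0.0277, 0.181 and 0.0686 in the knockout set of spermatocytes, and at 0.0157 and 0.0262 FPKM in wildtype and 0.0150 and 0.0556 in knockout spermatogonia, and 0.126, 0.119 and 0.0645 in wildtype and 0.0830, 0.151 and 0.0925 in knockout cultures, with no library above 0.181 FPKM. Dnahc5 stood at 0.0434, 0.0305 and 0.0325 FPKM in the wildtype set and 0.0244, 0.133 and 0.0436 in the knockout set of spermatocytes, and at 0.0589 and 0.0615 FPKM in wildtype and 0.0592 and 0.0294 in knockout spermatogonia, and 0.132, 0.0506 and 0.0426 in wildtype and 0.0774, 0.0721 and 0.0772 in knockout cultures. Dnahc11 was highest in cultures, at 0.0161, 0.00380 and 0.0241 FPKM in the wildtype set and 0.0155, 0.0206 and 0.00370 in the knockout set of spermatocytes, and at 0.0424 and 0.0214 FPKM in wildtype and 0.0585 and 0.0272 in knockout spermatogonia, and 0.246, 0.149 and 0.0684 in wildtype and 0.225, 0.105 and 0.0524 in knockout cultures. None of the 3 passed the filter in any comparison, so they were not tested. In wildtype spermatocytes Dnahc8 thus lay at a mean of 225 ± 72.7 FPKM beside 0.0355 ± 0.00692 for Dnahc5, another outer arm motor.

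**Figure D2:**
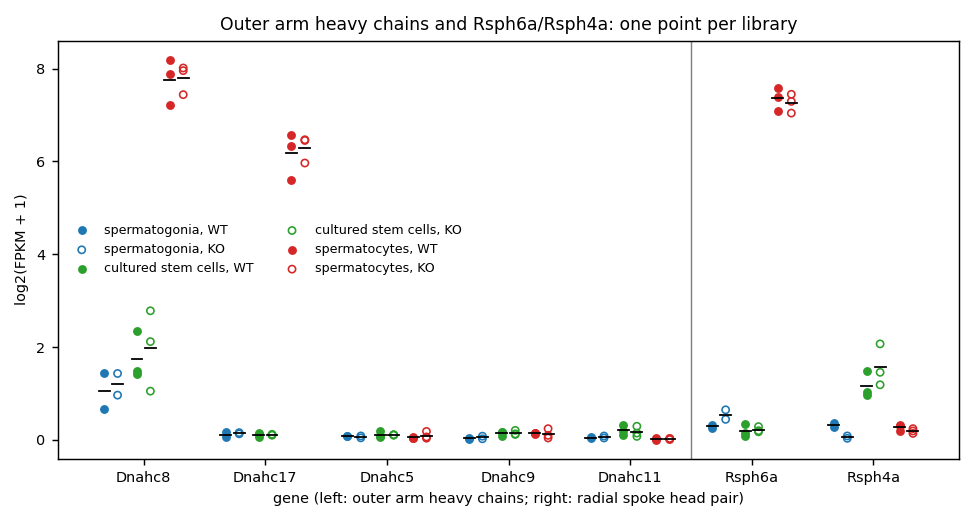
Level of the 5 outer arm heavy chains and of the radial spoke head pair Rsph6a and Rsph4a, as log2(FPKM + 1), with 1 point per library (filled wildtype, open knockout) and a bar at the group mean. Dnahc8, Dnahc17 and Rsph6a are high in the 6 spermatocyte libraries, while Rsph4a is highest in cultured stem cells.

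All 5 inner arm heavy chains, the motors that shape the bend, were higher in spermatocytes than in either other cell type, with log2 changes of 3.58 to 4.73 over spermatogonia and 3.64 to 4.86 over cultures. Against spermatogonia all passed the filter through spermatocytes alone, and against cultures all but Dnahc1 did. Those directions were set by the filter. Dnahc2 stood at 43.9, 49.7 and 26.4 FPKM in the wildtype set and 46.4, 31.3 and 43.6 in the knockout set of spermatocytes. It lay at 0.498 and 0.496 FPKM in wildtype and 0.665 and 0.810 in knockout spermatogonia, and 0.545, 0.363 and 0.205 in wildtype and 0.501, 0.546 and 0.470 in knockout cultures. Dnahc1 stood at 40.1, 47.1 and 27.6 FPKM in the wildtype set and 43.4, 33.01 and 45.01 in the knockout set of spermatocytes. These levels were about equal to those of Dnahc2 and far below Dnahc8, on the per-length scale. Outside spermatocytes Dnahc1 lay at 0.578 and 0.829 FPKM in wildtype and 0.897 and 0.578 in knockout spermatogonia, and 1.28, 1.29 and 1.01 in wildtype and 1.54, 1.32 and 1.68 in knockout cultures, above 1 in every culture and below 1 in every spermatogonial library. Dnahc7b stood at 24.1, 35.7 and 24.8 FPKM in the wildtype set and 35.5, 25.6 and 34.4 in the knockout set of spermatocytes. Elsewhere Dnahc7b lay at 0.860 and 0.607 FPKM in wildtype and 0.587 and 0.666 in knockout spermatogonia, and 0.581, 0.709 and 0.349 in wildtype and 0.564, 0.604 and 0.589 in knockout cultures. Spermatocytes stood apart from all 10 other libraries for each of these 3 motors, and the genotypes overlapped within spermatocytes. Dnahc7b has near copies, Dnahc7a and Dnahc7c, with which its reads may be shared. Dnahc6 and Dnahc10 had wildtype spermatocyte means of 21.7 and 14.6 FPKM.

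The smaller dynein chains fell into a sperm set and a pair with a base level in every cell. Dnali1, the light intermediate chain of inner arms, stood at 125, 122 and 117 FPKM in the wildtype set and 119, 105 and 109.6 in the knockout set of spermatocytes. It lay at 0.144 and 0.191 FPKM in wildtype and 0.327 and 0.324 in knockout spermatogonia, and 0.142, 0 and 0.157 in wildtype and 0.357, 0.0944 and 0.107 in knockout cultures. No library outside spermatocytes reached 1 FPKM of Dnali1, so its direction was set by the filter. The log2 change was 6.71 over spermatogonia (SE 0.13). Dnaic1, an outer arm intermediate chain, stood at 59.8, 62.1 and 53.7 FPKM in the wildtype set and 57.6, 51.3 and 53.5 in the knockout set of spermatocytes. In the other cells Dnaic1 lay at 0.283 and 0.0784 FPKM in wildtype and 0.202 and 0.266 in knockout spermatogonia, and 0.438, 0.197 and 0.257 in wildtype and 0.205, 0.465 and 0.322 in knockout cultures, with no overlap with spermatocytes. Dnaic2, the second intermediate chain, had the same order, with wildtype means of 45.95 FPKM in spermatocytes and 0.680 in spermatogonia. Neither intermediate chain reached 1 FPKM outside spermatocytes, so their directions were set by the filter as well. Dnalc4, a light chain, stood at 74.5, 65.8 and 73.8 FPKM in the wildtype set and 72.4, 66.5 and 70.6 in the knockout set of spermatocytes. In the other cells Dnalc4 lay at 13.8 and 16.2 FPKM in wildtype and 16.8 and 16.3 in knockout spermatogonia, and 14.7, 13.2 and 15.6 in wildtype and 11.8, 14.4 and 17.6 in knockout cultures, so it was plain in all 16 libraries and 4.76 times higher in wildtype spermatocytes than in spermatogonia. Dnalc1, an outer arm light chain, had the smallest log2 change of the dynein chains, 1.55 over spermatogonia and 0.89 over cultures.

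Tektins, filament proteins of the doublets, were among the sharpest, with log2 changes of 4.52 to 6.61 over spermatogonia. Tekt3, Tekt4 and Tekt5 passed the filter through spermatocytes alone, so their direction was set by it. Tekt1 stood at 195, 235 and 252 FPKM in the wildtype set and 220.2, 225 and 216 in the knockout set of spermatocytes. It lay at 0.771 and 2.16 FPKM in wildtype and 1.64 and 2.23 in knockout spermatogonia, and 0.452, 1.18 and 0.741 in wildtype and 0.788, 1.09 and 1.07 in knockout cultures. All 6 spermatocyte libraries lay at 195 FPKM or above, and no other library passed 2.23. Tekt2 stood at 110.5, 109 and 115 FPKM in the wildtype set and 89.1, 103 and 92.00 in the knockout set of spermatocytes. Outside them Tekt2 lay at 1.73 and 1.82 FPKM in wildtype and 1.68 and 1.72 in knockout spermatogonia, and 2.83, 2.37 and 5.23 in wildtype and 2.67, 5.68 and 4.30 in knockout cultures, the only tektin above 1 FPKM in all 16 libraries. Tekt3 stood at 119, 105 and 101 FPKM in the wildtype set and 96.3, 95.2 and 95.6 in the knockout set of spermatocytes. Outside them Tekt3 lay at 0.106 and 0.117 FPKM in wildtype and 0.235 and 0.199 in knockout spermatogonia, and 0.0439, 0.0737 and 0.0481 in wildtype and 0.0439, 0.0774 and 0.0878 in knockout cultures, at 0.235 FPKM or below throughout. Tekt4 and Tekt5, the other members, had wildtype spermatocyte means of 98.1 ± 6.22 and 26.8 ± 0.727 FPKM (SD, n = 3). In knockout spermatogonia replicate 2, Tekt4 stood at 0.577 and Tekt5 at 0.788 FPKM, above the 0.041 to 0.156 and 0.204 to 0.242 of the other 3 spermatogonial libraries; that library also carried Prm1.

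Radial spoke genes held the highest member. Rsph1, a spoke head protein, stood at 1593, 2356 and 2444 FPKM in the wildtype set and 1572, 2193 and 1467 in the knockout set of spermatocytes. These values formed a low set (wildtype 1, knockout 1 and knockout 3) and a high set (wildtype 2, wildtype 3 and knockout 2), which cut across genotype. Elsewhere Rsph1 lay at 3.26 and 6.19 FPKM in wildtype and 7.16 and 5.23 in knockout spermatogonia, and 4.93, 3.87 and 4.20 in wildtype and 3.90, 3.57 and 5.48 in knockout cultures. The log2 change was 8.56 over spermatogonia and 8.62 over cultures (SE 0.25 and 0.23), the largest of the members in each. Rsph3a, a stalk protein, stood at 404, 288 and 287 FPKM in the wildtype set and 299.6, 257 and 364 in the knockout set of spermatocytes. Elsewhere Rsph3a lay at 6.42 and 6.43 FPKM in wildtype and 4.89 and 4.76 in knockout spermatogonia, and 8.28, 9.99 and 11.4 in wildtype and 7.25, 10.5 and 13.2 in knockout cultures. Spermatocytes stood apart, and every culture lay above every spermatogonial library. Rsph3b, its near-identical copy, stood at 302, 257 and 245 FPKM in the wildtype set and 253, 228 and 278 in the knockout set of spermatocytes. Elsewhere Rsph3b lay at 4.88 and 4.97 FPKM in wildtype and 5.78 and 4.36 in knockout spermatogonia, and 9.64, 8.72 and 12.5 in wildtype and 6.43, 11.6 and 16.1 in knockout cultures, in the same order. Reads of this pair may be divided between them in ways the files do not show.

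Rsph6a and Rsph4a are relatives in the spoke head, known from sperm tails and from motile cilia respectively. Rsph6a stood at 192, 168 and 136 FPKM in the wildtype set and 174, 131 and 156 in the knockout set of spermatocytes. It lay at 0.194 and 0.250 FPKM in wildtype and 0.357 and 0.566 in knockout spermatogonia, and 0.0620, 0.105 and 0.267 in wildtype and 0.146, 0.127 and 0.218 in knockout cultures. Spermatocytes stood far above all other libraries, but Rsph6a passed the filter through spermatocytes alone, so it had to be higher there. Rsph4a stood at 0.146, 0.229 and 0.243 FPKM in the wildtype set and 0.141, 0.10 and 0.181 in the knockout set of spermatocytes. It lay at 0.281 and 0.207 FPKM in wildtype and 0.0592 and 0.0220 in knockout spermatogonia, and 1.04, 1.79 and 0.957 in wildtype and 3.19, 1.74 and 1.27 in knockout cultures. Every culture library was above every other library. Rsph4a passed the filter through cultures alone, so it had to be lower in spermatocytes (log2 change -0.89, SE 0.18). Rsph9, a further head protein, had wildtype means of 130.5 FPKM in spermatocytes, 2.08 in spermatogonia and 2.84 in cultures.

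All 12 IFT genes had a mean of at least 1 FPKM in wildtype spermatogonia, and all 12 were higher in spermatocytes in both comparisons. The IFT-A pair, for transport back from the tip, had log2 changes of 4.36 and 4.12 over spermatogonia beside a median of 2.30 for IFT-B. Ift140 stood at 187, 209 and 157 FPKM in the wildtype set and 191, 156 and 189 in the knockout set of spermatocytes. It lay at 8.06 and 7.86 FPKM in wildtype and 9.56 and 11.1 in knockout spermatogonia, and 9.37, 10.2 and 6.82 in wildtype and 9.47, 11.4 and 12.1 in knockout cultures, with both knockout spermatogonial libraries above both wildtype ones. Genotypes did not overlap in spermatogonia for 56.1% of all genes, and Ift140 was not called there (limma adjusted p = 0.348). Ift122 stood at 104, 109.7 and 97.3 FPKM in the wildtype set and 101, 96.5 and 102 in the knockout set of spermatocytes, and its log2 change over spermatogonia was 4.12 (SE 0.16). Elsewhere Ift122 lay at 4.52 and 5.60 FPKM in wildtype and 5.78 and 5.83 in knockout spermatogonia, and 7.32, 7.44 and 4.89 in wildtype and 8.16, 8.74 and 10.7 in knockout cultures. For both genes spermatocytes stood apart, while spermatogonia and cultures overlapped.

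The 10 IFT-B genes, for transport to the tip, spanned log2 changes of 1.14 to 4.55 over spermatogonia. Ift172, the largest IFT-B protein, stood at 123, 128 and 92.1 FPKM in the wildtype set and 123, 97.1 and 124 in the knockout set of spermatocytes. It lay at 3.76 and 4.02 FPKM in wildtype and 3.80 and 4.32 in knockout spermatogonia, and 12.04, 9.84 and 6.89 in wildtype and 10.4, 12.1 and 11.9 in knockout cultures, with cultures above spermatogonia throughout. Ift74, a core protein that binds tubulin with Ift81, stood at 117, 108 and 117 FPKM in the wildtype set and 103, 97.02 and 100.1 in the knockout set of spermatocytes. Elsewhere Ift74 lay at 19.6 and 22.7 FPKM in wildtype and 19.2 and 14.4 in knockout spermatogonia, and 28.2, 21.7 and 39.9 in wildtype and 27.5, 31.6 and 32.00 in knockout cultures. Spermatocytes stood apart, and within them every knockout library lay below every wildtype one, without a call (log2 change -0.19, limma adjusted p = 0.999). Ift20, which also works at the Golgi, stood at 55.8, 62.6 and 85.4 FPKM in the wildtype set and 64.1, 65.99 and 66.6 in the knockout set of spermatocytes. Elsewhere Ift20 lay at 31.9 and 27.97 FPKM in wildtype and 28.6 and 25.8 in knockout spermatogonia, and 22.95, 26.1 and 36.3 in wildtype and 24.3, 26.7 and 25.3 in knockout cultures, closer to spermatocytes than any other IFT gene. Ift20 had the smallest rise of the IFT genes over spermatogonia, 2.27 times, and Ift172 the largest, 29.4 times. Ift57 and Ift27, the first a peripheral protein and the last a small GTPase, had wildtype means of 24.5 and 49.8 FPKM in spermatocytes against 4.80 and 9.69 in spermatogonia.

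Of the SPAG proteins, 6 belong to the tail or its assembly, and all 6 were higher in spermatocytes in both comparisons. Only Spag1 and Spag4 passed the filter within spermatogonia, and only Spag1 and Spag8 within cultures, so the others had to be higher. Spag6, a central pair protein, stood at 248, 239 and 229.9 FPKM in the wildtype set and 246, 203 and 214 in the knockout set of spermatocytes. It lay at 0.215 and 0.238 FPKM in wildtype and 0.362 and 0.538 in knockout spermatogonia, and 0.560, 0.746 and 0.488 in wildtype and 0.622, 0.548 and 0.266 in knockout cultures, far apart from spermatocytes. Its wildtype mean in spermatocytes was 1057 times that of spermatogonia, where it was below 1 FPKM. Spag16, which sits in the central pair with it, stood at 130.1, 119.9 and 150.4 FPKM in the wildtype set and 125, 109.6 and 112 in the knockout set of spermatocytes. Elsewhere Spag16 lay at 0.394 and 0.221 FPKM in wildtype and 0.374 and 1.32 in knockout spermatogonia, and 0.592, 0.381 and 0.153 in wildtype and 0.314, 0.185 and 0.454 in knockout cultures, highest of these in the spermatogonial library that carried Prm1. Spag17, a large central pair protein, stood at 67.9, 75.2 and 47.1 FPKM in the wildtype set and 69.98, 55.2 and 65.7 in the knockout set of spermatocytes. Elsewhere Spag17 lay at 0.0629 and 0.108 FPKM in wildtype and 0.126 and 0.207 in knockout spermatogonia, and 0.163, 0.109 and 0.115 in wildtype and 0.0780, 0.0688 and 0.121 in knockout cultures, again with no overlap. Spag8, a protein inside the doublets, had wildtype means of 50.05 FPKM in spermatocytes and 0.247 in spermatogonia. Spag1, a dynein assembly factor, was 7.26 times higher in spermatocytes from a base of 5.72 FPKM.

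The other 5 SPAG symbols name proteins outside the axoneme, and in the values as deposited Spag5 alone among them was higher in spermatocytes than in both other cell types. Spag5, a mitotic spindle protein, stood at 59.4, 63.5 and 54.8 FPKM in the wildtype set and 58.4, 59.9 and 56.4 in the knockout set of spermatocytes. It lay at 13.5 and 14.2 FPKM in wildtype and 13.5 and 12.9 in knockout spermatogonia, and 18.1, 21.3 and 14.5 in wildtype and 20.6, 20.5 and 18.2 in knockout cultures, and was higher in spermatocytes (log2 change 2.02 over spermatogonia). Spag7, a nuclear protein, stood at 33.00, 33.7 and 35.3 FPKM in the wildtype set and 26.4, 31.1 and 29.5 in the knockout set of spermatocytes. Elsewhere Spag7 lay at 32.8 and 33.1 FPKM in wildtype and 35.1 and 25.5 in knockout spermatogonia, and 40.9, 36.1 and 57.97 in wildtype and 35.4, 46.7 and 52.1 in knockout cultures, overlapping with spermatocytes in the first and above all of them in the last, with no call against either cell type (log2 changes 0.04 and -0.36, limma adjusted p = 0.832 and 0.0592). Spag9, a scaffold for motor proteins, stood at 10.6, 12.3 and 11.2 FPKM in the wildtype set and 11.1, 12.2 and 12.4 in the knockout set of spermatocytes. Elsewhere Spag9 lay at 19.9 and 17.5 FPKM in wildtype and 14.4 and 16.1 in knockout spermatogonia, and 8.58, 9.71 and 7.26 in wildtype and 7.17, 7.55 and 5.66 in knockout cultures. It was the one member lower in spermatocytes than in spermatogonia (log2 change -0.67, SE 0.14, limma adjusted p = 0.000381) and was higher than in cultures (0.38, adjusted p = 0.0104). With median-ratio scaling its change over spermatogonia turned to 0.16 (limma adjusted p = 0.345), while Spag7 was called higher over both cell types, by 0.91 over spermatogonia (limma adjusted p = 0.000132) and 0.58 over cultures (0.00236). With quantile normalization Spag7 was instead called lower than in cultures (log2 change -0.44, limma adjusted p = 0.0113). So it was with the replicate block (0.0385), a covariate for transcript length (0.0341), and without wildtype cultures replicate 2 (0.0178) or knockout cultures replicate 1 (0.0434). Spag11b, an epididymal antimicrobial gene, was listed at 0 in all 16 libraries, and Spag11a in all but 2, at 0.276 FPKM in knockout spermatocytes replicate 2 and 0.322 in knockout cultures replicate 1.

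Cultured stem cells and isolated spermatogonia were compared next. Of 29 members tested, 11 were higher and 3 lower in wildtype cultures, where 30.5% of all 12902 genes were higher and 22.6% lower, and the members' median log2 change was 0.41 (all genes: 0.12). Of the 25 members that passed the filter within both cell types, 10 were higher and 2 lower (all such genes: 29.5% and 19.6%). Rsph4a passed it through cultures alone and Spag4 through spermatogonia alone, so their directions were set by the filter. Dnahc1 and Spag8 also passed it through cultures alone, so the filter favoured a rise for them. Ift80, an IFT-B protein at the edge of the complex, stood at 11.4, 11.3 and 9.27 FPKM in wildtype cultures and 2.07 and 2.68 in wildtype spermatogonia. The groups were far apart (log2 change 1.79, SE 0.14, limma adjusted p = 9.85e-08). Ift81, the partner of Ift74, stood at 10.1, 10.8 and 15.8 FPKM against 3.33 and 4.15 (log2 change 1.46, SE 0.18, adjusted p = 7.28e-06). Ift172 gave a log2 change of 1.08 (SE 0.19, adjusted p = 0.000268) on the values above. Ift46 and Ift88, both core proteins of IFT-B, were higher by 0.56 and 0.56 on the log2 scale, and Ift57 was lower by a log2 change of -0.62.

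Neither IFT-A gene was called in the main fit: Ift122 had a log2 change of 0.30 (95% interval -0.03 to 0.64) and Ift140 of 0.11 (-0.25 to 0.47). Ift122 was called higher with quantile normalization (log2 change 0.41, limma adjusted p = 0.0339) and without wildtype cultures replicate 3 (0.47, 0.0059). It was also called with a covariate for transcript length (0.39, 0.0213). Dnahc1, Ift27, Ift74, Rsph9, Spag7 and Spag8 gained a call under some settings too, of which Dnahc1 and Spag8 had passed the filter through cultures alone. Outside IFT, Rsph4a (0.84), Rsph3b (0.92), Dnalc1 (0.67), Tekt2 (0.64), Rsph3a (0.54) and Spag5 (0.34) were higher in cultures. Lower were Spag9 (-1.05, SE 0.14, limma adjusted p = 2.17e-05) and Spag4, a SUN-domain protein of the head-to-tail joint (-0.81). Ift80, Ift81, Ift172, Rsph3b, Rsph4a, Dnalc1 and Spag9 passed under every setting tried, though the direction of Rsph4a was set by the filter. The calls higher came to 6 without wildtype spermatogonia replicate 1 and 7 without replicate 2. Without the first of these libraries Ift46, Ift57, Ift88, Rsph3a, Spag5 and Tekt2 lost their calls, and Tekt1 was then called lower (log2 change -0.84, limma adjusted p = 0.00798). Without the other, Ift88, Rsph3a, Spag4, Spag5 and Tekt2 lost theirs, and without wildtype cultures replicate 3 Rsph3a, Spag4 and Tekt2 did. Rsph3a, Spag4 and Spag5 also missed the threshold without various other libraries. Sertoli markers moved with this comparison: the mean log2(FPKM + 1) of 12 genes was 5.34 and 5.80 in wildtype spermatogonia and 0.59 to 0.77 in wildtype cultures, with 1 of 12 at 0 there. Their part in the result was not tested.

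**Figure D3:**
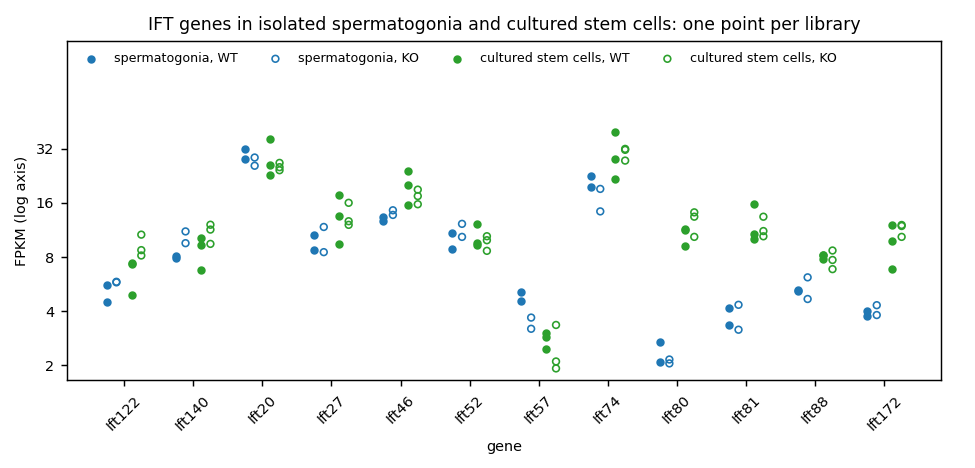
FPKM (log axis) of the 12 IFT genes in isolated spermatogonia (blue) and cultured stem cells (green), with 1 point per library, filled for wildtype and open for knockout. Ift80, Ift81 and Ift172 stand apart between the cell types without overlap, while Ift20 and Ift52 overlap.

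Knockout was then compared with wildtype in each cell type, the question of the series. In spermatocytes, where the members are high, limma called 0 of 43, and 0 of 43 had an unadjusted p under 0.05. Of all 10271 genes tested there, 0% were higher and 0.00974% lower, with 418 at an unadjusted p under 0.05. The members' median log2 change was -0.07 (all genes: -0.01), and the range was -0.30 to 0.18. For Dnahc17 the 95% interval was -0.31 to 0.55, for Dnali1 -0.37 to 0.12, for Tekt3 -0.38 to 0.04, for Spag6 -0.38 to 0.14 and for Ift140 -0.36 to 0.28 on the log2 scale. Each interval rests on a spread shared by all 16 libraries, not on that of spermatocytes alone. Genes near 0 in the other cells, such as Dnahc17, vary little there on this scale. Their intervals may therefore be too narrow for spermatocytes. Libraries of the genotypes did not overlap for 6 members, all lower in knockout (Tekt2, Tekt3, Tekt5, Ift74, Ift81 and Spag7), where 7.96% of all genes did not overlap. Tekt3 had a log2 change of -0.17 and Tekt5 of -0.23 (limma adjusted p = 0.999 for each).

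Spag4 had the lowest value of these changes, and 1 library set it. It stood at 22.9, 23.1 and 27.3 FPKM in the wildtype set and 10.6, 26.3 and 26.5 in the knockout set of spermatocytes, so knockout replicate 1 lay far below the other 5, which overlapped. The log2 change was -0.30 (SE 0.28) and turned to 0.12 without that library (limma adjusted p = 0.995). Foxj1, a regulator of motile cilia, was also lowest in that library, at 10.9, 9.16 and 9.38 FPKM in the wildtype set and 3.91, 12.4 and 8.03 in the knockout set. So was the spermatid list, with a mean log2(FPKM + 1) of 6.07 against 6.25 to 7.05 in the other 5. Within that list Akap4 and Odf1 were lowest there too. Prm1, Prm2, Tnp1 and Tnp2 were instead lowest in knockout replicate 2, at 335, 295, 280 and 308 FPKM. Foxj1 was named after its values were seen. Of other regulators, Crem and Rfx3 were also lowest in knockout replicate 1, and Rfx2 and Mybl1 were not. The part of Foxj1 and of the spermatid list in the result was not tested.

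In isolated spermatogonia limma called 0 of 26 members, where 0.917% of 11997 genes were higher and 5.76% lower (39.9% of calls higher with quantile normalization, 13.7% without). The median log2 change of members was 0.03 (all genes: -0.06). An unadjusted p under 0.05 was reached by 2 members and 2362 genes. Spag4 stood at 4.50 and 3.25 FPKM in knockout and 1.05 and 2.27 in wildtype. The groups did not overlap (log2 change 0.90, SE 0.34, adjusted p = 0.145), as for 56.1% of all genes. The adjusted p was 0.0393 with quantile normalization, 0.0213 in a fit of these groups alone and 0.0247 without knockout spermatocytes replicate 1, the library low in Spag4. It was 0.227 with a pseudocount of 0.1. Without wildtype spermatogonia replicate 1 the log2 change was 0.56 (limma adjusted p = 0.831), and without knockout spermatogonia replicate 1 it was 0.71 (0.492). Ift57 stood at 3.68 and 3.19 FPKM in knockout and 5.08 and 4.53 in wildtype, again without overlap (log2 change -0.39, adjusted p = 0.251). Spermatid markers were raised in 1 knockout library (list mean 2.14 against 0.50 to 0.62 in the other 3), and the fibroblast list was lower in knockout (3.65 in both libraries against 4.85 and 5.19), with 0 of its 10 genes at 0. The pachytene list was higher in both knockout libraries (2.61 and 2.74 against 2.23 and 2.40), with 2 of 10 tested genes called higher and 0 lower. The myoid list was lower (2.12 and 2.09 against 3.54 and 3.81), with 7 of 9 called lower and 0 higher. Their part in these values was not tested.

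In cultured stem cells limma called 0 of 28 members, where 0.324% of 12046 genes were higher and 5.84% lower. The median log2 change of members was 0.06 (all genes: -0.02). An unadjusted p under 0.05 was reached by 3 members and 2004 genes: Ift122, Rsph4a and Spag9. Ift122 stood at 8.16, 8.74 and 10.7 FPKM in knockout and 7.32, 7.44 and 4.89 in wildtype. The groups did not overlap, as for 18.3% of all genes (log2 change 0.44, SE 0.14, adjusted p = 0.0842). Without wildtype replicate 3, the lowest library, the change was 0.27 (limma adjusted p = 0.265), and with quantile normalization it was 0.53 (0.0367). Rsph4a had a log2 change of 0.41 (limma adjusted p = 0.266) with overlapping libraries, and Spag9 one of -0.29 (limma adjusted p = 0.263). The first became 0.16 without knockout replicate 1 (limma adjusted p = 0.651) and the last -0.18 without knockout replicate 3 (limma adjusted p = 0.587). The fibroblast and feeder list was lower in knockout cultures, with means of 3.53 to 4.26 against 4.98 to 5.67 and 0 of 10 genes at 0, and its part was not tested.

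The knockout effect was also compared between cell types as a difference of differences. Limma called 0 of 43 members between spermatocytes and spermatogonia, 0 of 44 between spermatocytes and cultures and 0 of 29 between cultures and spermatogonia, where 2.14%, 2.02% and 1.81% of all genes were called in either direction. Unadjusted p-values under 0.05 numbered 4, 1 and 1 of the members and 1905, 1370 and 1750 of all genes. Those 4 were Spag4 (log2 difference -1.20, limma adjusted p = 0.216), Spag16, Tekt4 and Tekt5; for the last 3 the spermatogonial library that carried Prm1 held the highest spermatogonial value. The single genes were Ift122 (spermatocytes against cultures, -0.50) and Rsph4a (cultures against spermatogonia, 0.67).

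**Figure D4:**
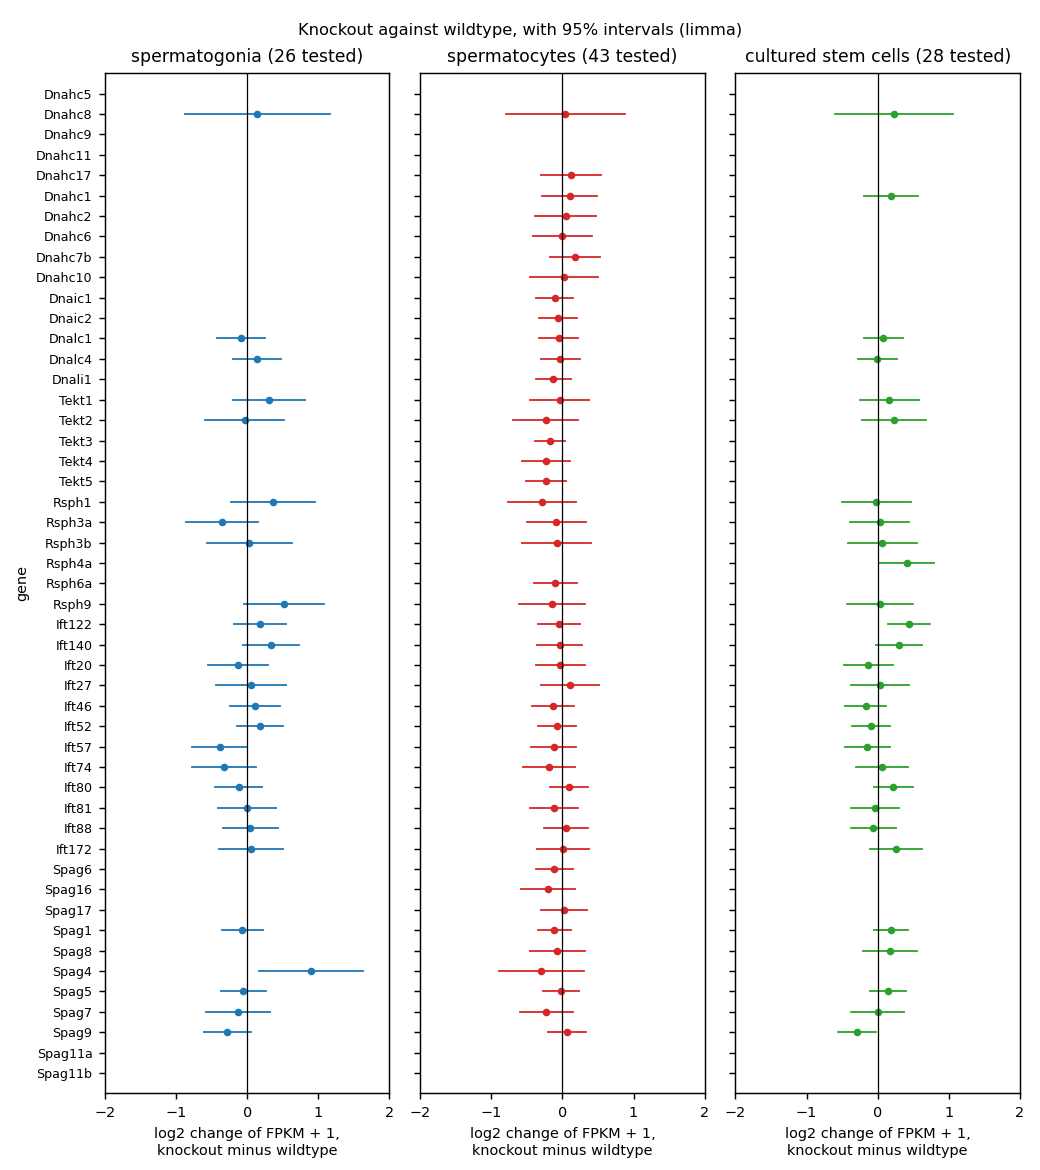
Log2 change of FPKM + 1, knockout minus wildtype, for each member tested in spermatogonia (26), spermatocytes (43) and cultured stem cells (28), with its 95% interval from limma. Intervals cross 0 for all 43 members in spermatocytes. Their width rests on a spread shared by all 16 libraries, so narrow ones may understate the spread of spermatocytes. Spag4 and Ift57 in spermatogonia and Ift122, Rsph4a and Spag9 in cultures have intervals that do not cross 0.

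Partner genes of the same machines, chosen as lists, stood in the same order between wildtype cells. Among the motors, adaptors and other subunits of IFT, 20 of 23 tested were higher in spermatocytes than in spermatogonia and 2 were lower. Ttc30a2, an IFT-B subunit, stood at 142 ± 6.34 FPKM in spermatocytes and 0.139 ± 0.109 in spermatogonia (SD, n = 3 and 2), and passed the filter through spermatocytes alone. Wdr35, an IFT-A subunit, rose from 2.44 ± 0.0882 to 66.8 ± 4.59 (limma adjusted p = 1.86e-14). Of the factors that assemble and dock dynein arms, 13 of 14 were higher and 0 lower. Lrrc50 and Zmynd10, both assembly factors, stood at 486 ± 55.2 and 394 ± 18.3 FPKM, and below 1 in spermatogonia. Of central pair, spoke and nexin link genes, 24 of 25 were higher, among them Tcte1 (105 ± 12.3 FPKM) and Ccdc39 (118 ± 9.04). Of BBSome genes, which carry membrane cargo with IFT, 10 of 10 were higher, with Bbs7 at 31.95 ± 1.77 against 3.29 ± 0.0379 FPKM, and a median log2 change of 2.07 beside 2.37 for the IFT partners and 5.53 for the central pair list. Cytoplasmic dynein and dynactin genes, a comparison set, were 6 higher and 5 lower of 13. Listed genes that passed the filter through spermatocytes alone had to be higher. Of those that passed it within spermatogonia, 18 of 21 IFT partners, 5 of 6 dynein assembly genes, 10 of 11 central pair genes and 10 of 10 BBSome genes were higher.

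Of 13 regulators of ciliary and sperm tail genes tested, 7 were higher and 3 lower in spermatocytes, and of the 9 that passed the filter within spermatogonia, 4 and 3. Rfx2, a spermatocyte RFX factor, stood at 149 ± 15.04 FPKM in spermatocytes and 0.565 ± 0.0572 in spermatogonia, and Rfx4, of the same family, at 29.9 ± 3.75 and 0.115 ± 0.0632. Rfx2 passed the filter through spermatocytes alone, so its direction was set by it. Rfx4 was far below 1 FPKM in wildtype spermatogonia, so the filter favoured a rise there too. Taf7l, a TFIID subunit of germ cells, fell from 137 ± 19.1 to 3.73 ± 0.255. Against cultures the lists gave 21, 13, 23, 10, 7 and 6 higher and 2, 1, 1, 0, 4 and 4 lower, in the order IFT partners, dynein assembly, central pair, BBSome, regulators and cytoplasmic dynein. Those that passed the filter within cultures gave 19 of 21, 5 of 6, 14 of 16, 10 of 10, 5 of 10 and 5 of 12 higher. In cultures against spermatogonia Wdr35 and Ttc21b, both IFT-A subunits, rose by 1.27 and 1.37 on the log2 scale (limma adjusted p = 2.37e-07 and 3.26e-07). The IFT-A members Ift122 and Ift140 were not called in the main fit, though Ift122 was called higher under some alternatives. Between genotypes limma called 1 of 70 tested genes of these 6 lists in spermatogonia, where 0.917% of all genes were higher and 5.76% lower, and 1 of 75 in cultures, where 0.324% were higher and 5.84% lower. In spermatocytes it called 0 of 96, with 4 at an unadjusted p under 0.05. Lrrc50 was higher in knockout spermatogonia (1.54 ± 0.326 against 0.772 ± 0.102 FPKM; log2 change 0.52, limma adjusted p = 0.0458), a call lost without wildtype spermatogonia replicate 1 or 2 (log2 change 0.46 and 0.57, limma adjusted p = 0.375 and 0.117), with median-ratio scaling (0.145), in a fit of these groups alone (0.116), with the replicate block (0.0546) and without several single libraries of other groups (0.0517 to 0.0718). Dynlt3, a dynein light chain, was lower in knockout cultures (5.77 ± 0.502 against 11.1 ± 1.87 FPKM; log2 change -0.83, limma adjusted p = 0.00222), and passed under every setting tried.

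Among the 6 spermatocyte libraries the members' deviations went with transcript length. The 7 heavy chains above 5 FPKM in all 6, whose longest coding transcripts run from 12314 to 16685 bases, were each below their 6-library mean in wildtype replicate 3 and in knockout replicate 2. The median deviation on the log2 scale was -0.56 and -0.32 there. In wildtype replicate 2 and knockout replicates 1 and 3 all 7 were above it, by medians of 0.34, 0.23 and 0.19, and in wildtype replicate 1 all but Dnahc7b were, by a median of 0.11. Rsph1, of 1191 bases, was highest in wildtype replicate 3 (deviation 0.37), but it was also high in wildtype replicate 2 (0.31), where the heavy chains were high. Across the 43 members that passed 5 FPKM, the Pearson correlation of deviation with log2 length was -0.82 and -0.60 in the first pair of libraries, 0.70, 0.60 and 0.62 in the next 3 and 0.07 in wildtype replicate 1. These points share a library and a scaling, and each deviation is taken from a mean that includes it.

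Genes outside the set moved the same way by smaller amounts. The 74 others with transcripts of at least 10000 bases had median deviations of -0.22 and -0.12 in wildtype replicate 3 and knockout replicate 2 and 0.01 to 0.15 in the other 4. The low libraries came from both genotypes, and without both the members called stayed at 41 and 42 higher in spermatocytes and 0 in knockout spermatocytes. Among cultures, wildtype replicate 3 stood apart in the same way, with -0.55 for 126 other genes of at least 10000 bases, 0.45 for 1960 under 2000 bases, and a correlation of -0.73 over 17 members. Ift122, Ift140 and Ift172 were lowest there, and Ift20, Ift27, Ift46, Ift74 and Ift81 highest, among the 3 wildtype cultures. With each library's length slope, taken from other genes, as a covariate, Ift122 in knockout cultures had a log2 change of 0.31 (limma adjusted p = 0.205) in place of 0.44. Whether length itself or something that goes with it sets these deviations was not tested.

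**Figure D5:**
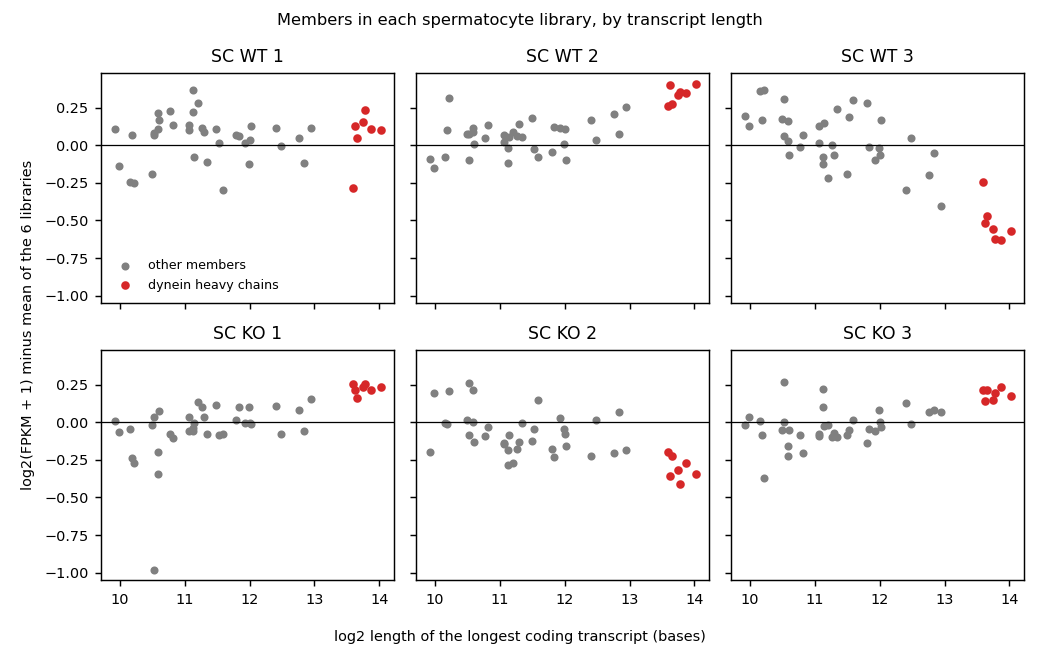
Deviation of each of 43 members from its mean over the 6 spermatocyte libraries, on the log2(FPKM + 1) scale, against the log2 length of its longest coding transcript in bases, 1 panel per library. The 7 heavy chains (red) lie below 0 in wildtype 3 and knockout 2 and above 0 in the other panels, except Dnahc7b in wildtype 1; the grey point near -1 in knockout 1 is Spag4.

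Some values carry a limit of annotation. In GENCODE M21 exons of Dnahc8, Dnahc17, Spag17, Ift88 and other members overlap genes on the opposite strand, and the sources used here do not say whether counting used strand. For these genes, reads of the overlapping partner cannot be told apart from their own.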

How the data were processed

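Total RNA of 16 libraries was sequenced, and the authors deposited 1 FPKM table per library. TopHat2 2.0.6, Cufflinks 2.0.2 and the build mm9 are named in the submitters' processing notes; their settings are not given in the sources used here. FPKM from these deposited tables hold no depth, so no interval from counting could be given. Of 23021 rows, 728 rows of 259 symbols that occur more than once were left out, which leaves 22293 genes; no member was lost. Sheet names inside the 4 spermatogonial tables number each replicate 1 higher than the sample labels do; the labels' numbers are used. Values were taken as log2(FPKM + 1) and fitted with limma 3.58.1 in R 4.3.3 (trended prior, 1 mean per group, all 16 libraries, 10 residual degrees of freedom), after a check on simulated data. Tests were two-sided with Benjamini-Hochberg adjustment over all genes tested. A fold change on this scale understates the change of low genes; a ratio given as a number of times is of mean FPKM. Members, lists and tests were chosen with earlier results of these data known. Members could be named by role, with every library's value for the 3 highest of each role in wildtype spermatocytes and for those called or higher elsewhere; up to 3 genes per list with the smallest p could be named, and Foxj1, Prm1, Ldhc, Gfra1 and Amh were named after their values were seen. Alternatives were another pseudocount, no filter, quantile and median-ratio scaling, a fit of the compared groups alone, a robust prior, a replicate block and leaving out each library, and 3 more chosen after seeing the data. Motif letters were set after several spellings had been looked at, so their shares are descriptions. Promoter sequences and transcript lengths are from RefSeq and GENCODE M21 on GRCm38.p6, not the build of the files, and were joined by symbol. Figures were drawn with Python 3.11.15 and matplotlib 3.10.9.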

Additional observations from a re-analysis of the deposited data

How the results depend on the processing

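Counts of members called moved as follows. In knockout spermatogonia 1 member was called higher in place of 0 with quantile normalization and with only the compared groups in the fit, and 0 to 1 when each library was left out. In knockout cultures 1 was called higher with quantile normalization. In spermatocytes against spermatogonia 0 in place of 1 were lower with median-ratio scaling, where Spag9 turned to a log2 change of 0.16 and Spag7 over cultures to 0.58; a turn in sign was counted only where either value passed the threshold. In spermatocytes against cultures 2 in place of 1 were lower with no filter, quantile normalization, the replicate block and the length covariate, and 1 to 2 when each library was left out. In cultures against spermatogonia 6 to 13 were higher and 2 to 3 lower when each library was left out. In knockout spermatocytes, and in the 3 differences between knockout effects, 0 members were called under every setting tried.

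Replicate numbers did not pair the libraries throughout: the deviations of same-numbered wildtype and knockout libraries correlated at 0.26, -0.34 and -0.17 in spermatocytes, -0.000173, -0.06 and 0.23 in cultures and -0.17 in spermatogonia. The 0.26 of spermatocyte number 1 and the 0.23 of culture number 3 were the highest for those libraries. With 2 libraries per group, the spermatogonial values can differ only in sign. In spermatocytes, wildtype 2 with knockout 3 and wildtype 3 with knockout 2 correlated at 0.38 each. In cultures, wildtype 2 with knockout 1 correlated at 0.30 and wildtype 1 with knockout 2 at 0.18. The replicate block used the same numbers, so it did not account for these pairs. With the replicate block the members called were 41 higher and 1 lower in spermatocytes against spermatogonia, 42 and 2 against cultures, and 9 and 4 in cultures against spermatogonia, with 0 in the knockout comparisons. Over all genes in knockout spermatogonia, 110 higher and 691 lower became 69 and 529 with the block and 110 and 610 with the numbers crossed. The depth behind each value is unknown, so low values near 0 carry no stated precision.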
